A study of Mus musculus with 26 samples.

Results

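The transcriptomes of pancreatic islet macrophages from 2-week-old NOD/ShiLtJ (NOD) mice were compared with those from 2-week-old C57BL/6J (B6) mice across all genes. NOD mice develop autoimmune diabetes spontaneously after leukocytes infiltrate their islets, B6 mice do not, and 2 weeks is an age before that infiltration. The comparison was chosen by strain and age as labelled and holds 4 NOD and 3 B6 libraries of the 26 in the series, which also covers NOD at 4, 8 and 12 weeks and B6 at 4 and 12 weeks. All mice were female, and the labels name no treatment and no engineered allele in either strain. Each library came from the pooled islet cells of 6 to 14 mice, from which live cells positive for CD45, F4/80 and CD11c and negative for B220 and CD90 were sorted. The messenger RNA was then amplified before sequencing. The labels do not say whether the pools of a group had separate origins beyond this, so the p-values measure the spread between these libraries.

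Islet macrophages are resident phagocytes that lie against the vessels of the islet and present peptides of beta-cell granules on MHC class II molecules. Tissue macrophages also keep a baseline of antiviral genes switched on: cytosolic sensors of nucleic acids raise type I interferon, the interferon receptor activates STAT and IRF transcription factors, and these bind interferon-stimulated response elements in the promoters of effector genes. NOD mice carry their own MHC haplotype, with a class II beta chain that differs in sequence from that of B6 mice and is a major inherited determinant of their diabetes.

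Total counts per library ran from 10247489 to 13859955 in NOD and from 7932056 to 8420498 in B6. The NOD libraries held 19124 to 21665 genes with a count and the B6 libraries 21416 to 22252. Within a group, the mean Spearman correlation of a library with the others across genes was 0.91 to 0.924 in NOD and 0.841 to 0.859 in B6, where genes are not independent replicates. At these depths 3 counts, taken as the limit below which a gene with 0 counts may lie, were 0.193 to 0.257 CPM (counts per 1000000) in NOD and 0.33 to 0.342 CPM in B6, which covers counting error only. The genes of the sort markers CD45 (Ptprc, log2 fold change -0.01) and F4/80 (Adgre1, -0.49, adjusted p = 0.17) did not differ past the threshold, while Itgax, which encodes CD11c, was lower in NOD (327 to 474 against 622 to 867 CPM, -0.96 ± 0.15, adjusted p = 1.45e-04). These proteins were used for the sort, and the part of the gate in the RNA levels was not tested. Of the 16 genes on the core macrophage and sort marker list, Itgax was lower and 3 were higher, namely Fcgr1, Lyz2 and Tyrobp, an adaptor of activating receptors (1077 to 1166 against 615 to 791 CPM, 0.63 ± 0.17, adjusted p = 0.0495). The call of Tyrobp was lost without any 1 of the 7 libraries (adjusted p = 0.06 to 0.237) and with RLE or upper-quartile scaling, the stricter filter, DESeq2 or limma-voom (adjusted p = 0.055 to 0.125). On the same list Csf1r, the receptor that macrophages need to survive, stood at -0.24 (adjusted p = 0.318) and Cd68 at 0.24 (adjusted p = 0.48).

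At 2 weeks, 421 of 19703 genes tested differed between the strains, or 2.14% (edgeR quasi-likelihood test on all 26 libraries, Benjamini-Hochberg adjusted p under 0.05). Of these, 177 were higher in NOD (0.898% of genes tested) and 244 were lower (1.24%). These shares are the background for the counts of list members from this fit at 2 weeks. Other fits and other ages called other shares of all genes, so counts from them have another background. With DESeq2 5.82% were called and with limma-voom 5.17%. The median absolute log2 fold change of the called genes was 1.85, and 128 of them differed by at least 3 on the log2 scale. The 4 NOD and 3 B6 libraries did not overlap for 401 of the 421, against 3551 of all genes tested, or 18%. Other choices of libraries gave other counts: the 2 groups fitted alone gave 906 genes of 14041 tested, and the fit without the B6 4 week libraries, which stood apart from all others, gave 1880. Of the 421 genes, 386 (91.7%) were also called with the 2 groups alone, all in the same direction, and 420 without the B6 4 week libraries. Higher genes made up 42% of the calls, against 30.5% with RLE scaling and 24.1% with upper-quartile scaling, which moved the median log2 fold change of all genes tested from -0.07 to -0.17 and -0.24. Leaving out 1 library left 239 calls (B6 replicate 2 omitted), 250 (B6 replicate 1) or 280 (NOD replicate 2), and between 285 and 326 for the others.

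**Figure D1:**
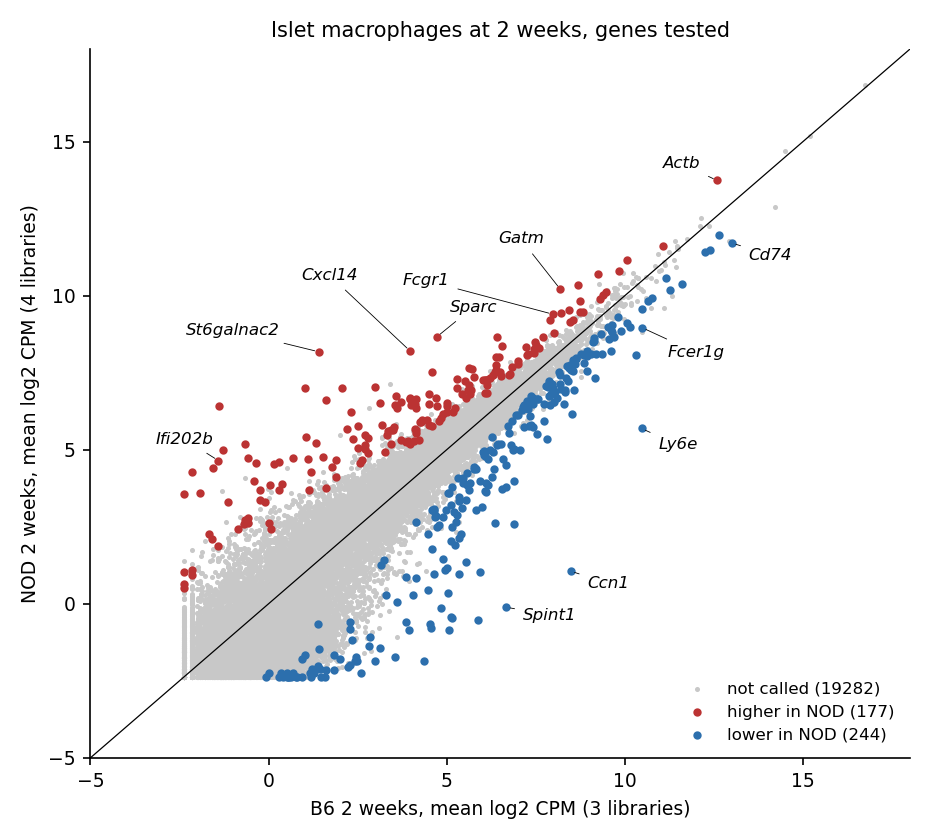
Mean log2 CPM of each of the genes tested in the 3 B6 libraries (x axis) and the 4 NOD libraries (y axis) at 2 weeks, with the line of equal level. The 177 genes higher in NOD lie above the line and the 244 lower genes below it, among them Ly6e and Ccn1.

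The largest falls and rises were picked only among called genes whose libraries did not overlap, so lack of overlap in them is no further evidence. Among the largest falls was Ly6e, an interferon-inducible surface protein anchored by a lipid tail. It stood at 49, 52.7, 56.8 and 47.5 CPM in the NOD libraries and at 776, 2130 and 1733 CPM in the B6 libraries. Each B6 library lay far above every NOD library, a 30-fold difference (log2 fold change -4.91 ± 0.27, SE, adjusted p = 8.74e-14). In such bulk samples fewer cells of a type and less RNA per cell cannot be told apart. Slamf7, a surface receptor of the SLAM family of immune cell receptors, stood at 0.451, 1.03, 1.02 and 2.49 CPM in NOD and 27.1, 58.7 and 22 CPM in B6. Slamf7 was 28.8-fold lower (-4.86 ± 0.43, adjusted p = 3.40e-09). Ccn1, a secreted protein of the extracellular matrix, stood at 0.902, 1.03, 2.04 and 6 CPM in NOD against 243, 524 and 361 CPM in B6. Its difference was 151-fold (-7.27 ± 0.68, adjusted p = 2.83e-07). Spint1, which blocks serine proteases at the cell surface, ran from 0.257 to 2.36 CPM in NOD and from 82.7 to 116 CPM in B6 (-6.74 ± 0.59, adjusted p = 2.96e-09). For both genes every NOD library lay far below every B6 library.

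Other large falls involved membrane and mitochondrial proteins. Slc15a2, a transporter of small peptides, stood at 0.129 to 1.49 CPM in NOD and 27.5 to 54.7 CPM in B6 (-5.57 ± 0.87, adjusted p = 1.01e-04). Mcub, a subunit that restrains the mitochondrial calcium uniporter, stood at 0.193 to 1.65 CPM against 19.5 to 36 CPM (-5.09 ± 0.65, adjusted p = 4.65e-06). Both were low in all NOD libraries. Eps8l1, a relative of the actin regulator Eps8, differed by -5.31 ± 0.89 (adjusted p = 2.70e-04) and Btbd11 by -4.62 ± 0.68 (adjusted p = 4.13e-05). Ptprm, a receptor tyrosine phosphatase that mediates cell adhesion, stood at 0.193 to 0.786 CPM in NOD and spread from 4.74 to 41.8 CPM in B6 (-5.73 ± 1.01, adjusted p = 5.38e-04). Outside the rule for naming genes, and chosen after their values were seen, were Il2ra, Apobec3, Ets1 and Nes. Il2ra, the alpha chain of the interleukin-2 receptor, stood at 7.35, 16.3, 17.7 and 26.6 CPM in NOD and 103, 209 and 75 CPM in B6 (-2.93 ± 0.30, adjusted p = 7.88e-08). Apobec3, a cytidine deaminase that restricts retroviruses, stood at 34.3 to 46.9 CPM in NOD and 166 to 267 CPM in B6 (-2.50 ± 0.20, adjusted p = 9.73e-10). Ets1, a transcription factor best known in lymphocytes, fell by 4.05 on the log2 scale (SE 0.56, adjusted p = 1.36e-05) and Nes, an intermediate filament protein, by 2.76 (SE 0.37, adjusted p = 7.51e-06).

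The largest rises included secreted proteins. Sparc, a matrix-associated glycoprotein, stood at 439, 427, 395 and 365 CPM in NOD and 28, 29.2 and 22.3 CPM in B6. It was 15.4-fold higher in NOD, with tight values in both strains (3.94 ± 0.42, adjusted p = 1.40e-07). Cxcl14, a chemokine, stood at 311, 299, 313 and 262 CPM in NOD and 18.4, 12.1 and 16.6 CPM in B6, 18.9-fold apart (4.24 ± 0.37, adjusted p = 2.96e-09). Dcstamp, a membrane protein needed for the fusion of macrophages and osteoclasts into multinucleate cells, stood at 104 to 157 CPM in NOD and 3.99 to 13 CPM in B6 (3.92 ± 0.36, adjusted p = 6.16e-09). Pianp, a ligand of the inhibitory receptor PILR alpha, stood at 123, 144, 135 and 108 CPM in NOD and at 15.8, 1.32 and 2.73 CPM in B6, where replicate 1 was the high library (4.27 ± 0.62, adjusted p = 4.49e-05). The calcium channel gene Cacna1a (3.78 ± 0.53, adjusted p = 1.90e-05) and the muscarinic receptor gene Chrm3 (4.62 ± 0.86, adjusted p = 0.00109) were also higher. So was Atp2b4, a plasma membrane calcium pump, at 71.7 to 167 CPM in NOD and 8.2 to 15.6 CPM in B6 (3.21 ± 0.44, adjusted p = 1.40e-05). Cd300lb, an activating receptor of myeloid cells, differed by 3.69 ± 0.92 (adjusted p = 0.0251), and its call was lost without filtering (adjusted p = 0.0939) and when NOD replicate 1 or 2 or B6 replicate 1 or 3 was left out (adjusted p = 0.0589 to 0.152).

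**Figure D2:**
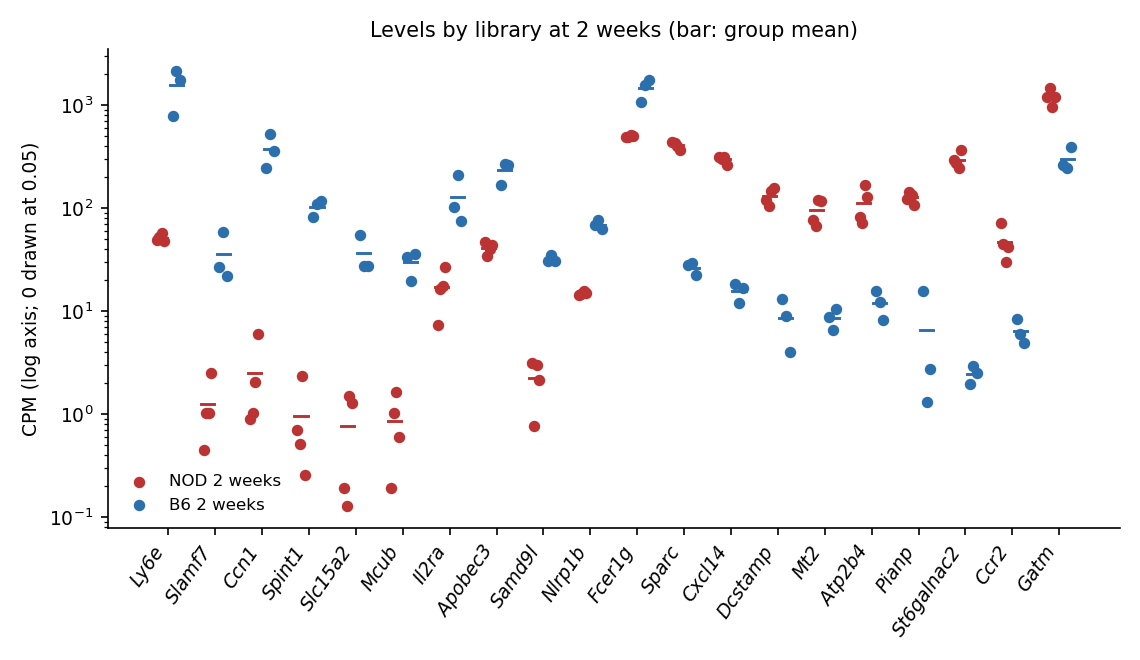
CPM on a log axis for 20 genes named in the text, with 1 point per library (4 NOD, 3 B6 at 2 weeks) and a bar at each group mean. The genes from Ly6e to Fcer1g are lower in NOD and those from Sparc to Gatm higher, with no overlap between strains. For the largest falls and rises, lack of overlap was a condition of their choice.

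Among genes with the most reads, which are not compared with each other because counts also grow with transcript length, 10 higher and 10 lower were taken. Actb, cytoplasmic actin, stood at 13868, 13599, 11281 and 16458 CPM in NOD and 4323, 6024 and 9005 CPM in B6 (1.10 ± 0.18, adjusted p = 1.51e-04). Tmsb4x, which binds monomeric actin, rose alongside it, at 1520 to 1776 CPM in NOD and 452 to 761 CPM in B6 (1.44 ± 0.23, adjusted p = 1.80e-04). Gatm, the enzyme that makes the creatine precursor guanidinoacetate, stood at 1199, 1450, 960 and 1185 CPM in NOD and 260, 246 and 388 CPM in B6, 4.02-fold higher (2.01 ± 0.18, adjusted p = 5.10e-09). Apobec1, which edits Apob messenger RNA, was 3.12-fold higher (1.64 ± 0.20, adjusted p = 1.17e-06) and Cst3, a secreted inhibitor of cathepsins, 2.17-fold higher (2121 to 2461 against 1015 to 1124 CPM, 1.12 ± 0.15, adjusted p = 1.04e-05). On the lower side, Pld4, an endolysosomal nuclease that degrades single-stranded nucleic acids, stood at 887 to 943 CPM in NOD and 1211 to 1972 CPM in B6 (-0.84 ± 0.17, adjusted p = 0.00335). Wnk1, a kinase that regulates ion transport, was 1.5-fold lower (-0.59 ± 0.12, adjusted p = 0.00237). In NOD, Apoe, an apolipoprotein, ranged from 3573 to 4462 CPM and in B6 the libraries held 7921, 4601 and 7305 CPM, so its lowest B6 library lay just above the highest NOD library (-0.70 ± 0.15, adjusted p = 0.00787). The call of Pld4 was lost without B6 replicate 3 (adjusted p = 0.0825), as was that of Wnk1 (adjusted p = 0.0532), and that of Apoe without filtering (adjusted p = 0.0671) and without B6 replicate 1 or 3 (adjusted p = 0.0943 to 0.132). That of Actb was lost with limma-voom (adjusted p = 0.163).

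Antiviral effector genes formed a large group of falls. Of 45 tested members of a list of type I interferon-stimulated effectors, 15 were lower in NOD, none was higher and 30 did not pass, where 1.24% of all genes tested were lower. The median log2 fold change of the list was -1.33 and 43 members had a negative value, against a median of -0.07 over all genes tested, of which 53.1% were below 0. Oasl2, a relative of the oligoadenylate synthetases that sense double-stranded RNA, stood at 43.4, 28.2, 57.5 and 60.9 CPM in NOD and 124, 344 and 155 CPM in B6 (-2.13 ± 0.27, adjusted p = 4.61e-06). Oas2, one of those synthetases, stood at 19.9 to 42.4 CPM in NOD and 84.8 to 119 CPM in B6 (-1.84 ± 0.29, adjusted p = 1.40e-04). Samd9l, an antiviral restriction factor, stood at 3.16, 0.774, 2.99 and 2.14 CPM in NOD and 30.7, 34.9 and 30.7 CPM in B6, a 14.2-fold difference (-3.82 ± 0.51, adjusted p = 7.64e-06). Rnf213, a very large ubiquitin ligase, stood at 236 to 352 CPM in NOD and 624 to 1100 CPM in B6 (-1.43 ± 0.19, adjusted p = 5.26e-06). None of these 4 genes had overlapping groups. Zbp1, a sensor of Z-form nucleic acids (-2.29, adjusted p = 0.001), Oas3 (-2.24, adjusted p = 0.0059), Oasl1 (-3.14, adjusted p = 0.00799) and Slfn5 (-1.36, adjusted p = 0.0059) were lower as well. The ubiquitin-like modifier Isg15 (-1.61, adjusted p = 0.411) and Ifit3 (-0.98, adjusted p = 0.642), also of this class, did not pass.

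B6 replicate 2 was the highest library for the type I interferon-stimulated effectors, and was left out to see how far the counts rested on it. The mean log2 CPM of the list was 3.51, 3.15, 3.33 and 3.58 in the NOD libraries and 4.28, 5.33 and 4.70 in the B6 libraries, so that every NOD library lay below every B6 library. Without B6 replicate 2, 5 of 46 members were lower and 42 had a negative log2 fold change, with a median of -1.07. The calls of Zbp1 (adjusted p = 0.123), Oas3 (adjusted p = 0.0977) and Oasl1 (adjusted p = 0.149) were among those lost. Without any other single library, 10 to 14 members were lower. The list also separated NOD at 2 weeks from the older NOD libraries, in which its mean ran from 3.94 to 4.53, while the B6 libraries of 4 and 12 weeks ran from 4.04 to 4.73.

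**Figure D3:**
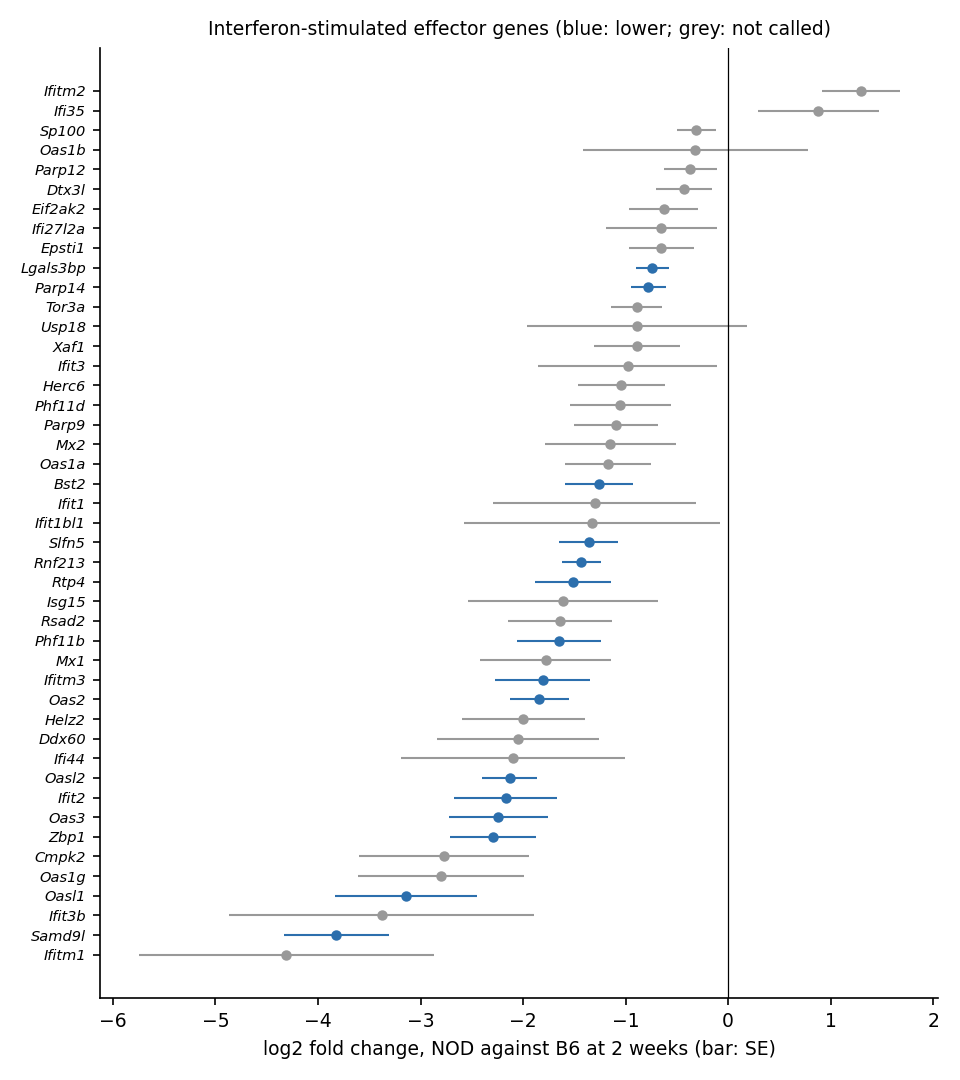
Log2 fold change of NOD against B6 at 2 weeks (x axis, bar: SE) for the 45 tested interferon-stimulated effector genes, ordered by value. The 15 genes that passed the test are blue and all lie below 0, and only Ifitm2 and Ifi35, which did not pass, lie above it.

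Promoters bear on this group because its members share a known response element, and 3 that were lower in NOD and hold the element upstream of their start are shown here. Sequences are the RefSeq gene starts of GRCm38, of which the table used holds an entry for 34 of the 45 genes. Capitals mark the core of the interferon-stimulated response element, searched on either strand as GAAA, any 2 bases and GAAA. The stretches are the 250 bases before the start of Bst2 (chr8:71537473-71537722, minus strand), a membrane protein that tethers budding virus; of Oas3 (chr5:120777660-120777909, minus strand); and of Phf11b (chr14:59341331-59341580, minus strand).
Bst2: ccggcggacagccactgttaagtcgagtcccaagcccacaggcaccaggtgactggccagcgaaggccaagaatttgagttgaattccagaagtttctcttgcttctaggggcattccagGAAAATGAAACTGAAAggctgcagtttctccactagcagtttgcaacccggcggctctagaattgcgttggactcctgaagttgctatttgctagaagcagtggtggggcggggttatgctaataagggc
Oas3: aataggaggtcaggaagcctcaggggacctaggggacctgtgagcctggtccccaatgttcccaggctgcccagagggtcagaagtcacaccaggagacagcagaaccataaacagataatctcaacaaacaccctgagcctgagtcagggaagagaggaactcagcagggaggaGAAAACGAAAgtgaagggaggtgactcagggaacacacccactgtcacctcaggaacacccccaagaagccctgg
Phf11b: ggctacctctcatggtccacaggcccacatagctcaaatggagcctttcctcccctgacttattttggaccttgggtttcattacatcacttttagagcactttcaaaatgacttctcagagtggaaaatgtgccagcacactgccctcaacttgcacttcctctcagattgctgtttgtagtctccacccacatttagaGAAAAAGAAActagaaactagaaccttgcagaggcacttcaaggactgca

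In Bst2, 2 overlapping matches began 130 and 124 bases before the start, in Oas3 the match began 75 bases and in Phf11b 50 bases before it. Over windows of 250 bases before to 50 after the start, the motif stood in 3.44% of all 32851 promoters of the table and in 3.83% of those of tested genes. Among the interferon-stimulated effectors it stood in 16 of 34 (47.1%), with 5 of 11 (45.5%) among those lower in NOD and 11 of 23 (47.8%) among those not called. Of all genes lower in NOD with an entry, 22 of 181 (12.2%) held it, and of all genes higher in NOD 5 of 114 (4.39%). A match is only these letters in this window, read from a reference built from C57BL/6J, and NOD sequence was not analysed here. Bst2 (31.8 to 43.8 against 75.6 to 110 CPM, -1.26 ± 0.33, adjusted p = 0.0324) lost its call when any 1 library was left out (adjusted p = 0.0547 to 0.182), with the replicate block and with the islet covariate (adjusted p = 0.0553 to 0.0573). Phf11b lost its call without NOD replicate 1 or 2 or B6 replicate 2 or 3 (adjusted p = 0.0531 to 0.241).

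Upstream of these effectors, the differences were fewer. Of 21 interferon receptor and signalling genes, 1 was lower and none higher, with a median of -0.14. It was Irf7, the transcription factor that amplifies type I interferon, at 45.8, 13.7, 14 and 20.4 CPM in NOD and 43, 157 and 76 CPM in B6, where the groups overlapped (-1.97 ± 0.43, adjusted p = 0.00719). The receptor chains Ifnar1 (239 to 311 against 182 to 287 CPM, adjusted p = 0.63) and Ifnar2 (132 to 152 against 113 to 138 CPM, adjusted p = 0.611) did not pass. Of 22 nucleic acid sensing genes, the 3 that were lower encode the related cytosolic RNA helicases: Ifih1 (MDA5, -1.33 ± 0.28, adjusted p = 0.00447), Ddx58 (RIG-I, -1.42 ± 0.36, adjusted p = 0.0296) and Dhx58 (LGP2, -1.91 ± 0.48, adjusted p = 0.0244). Irf7 (adjusted p = 0.171) and Ifih1 (adjusted p = 0.105) lost their calls without B6 replicate 2, Dhx58 with limma-voom (adjusted p = 0.064) and without NOD replicate 1 or 2 or B6 replicate 1 or 2 (adjusted p = 0.0732 to 0.208), and Ddx58 with the islet covariate (adjusted p = 0.0509) and without any 1 of the 7 libraries (adjusted p = 0.0628 to 0.13). Among 24 surface pattern recognition and inflammasome genes 2 were lower. Nlrp1b, an inflammasome sensor known to vary among mouse strains, stood at 14.4, 14.8, 15.6 and 15.1 CPM in NOD and 68.9, 76.2 and 62.3 CPM in B6 (-2.21 ± 0.24, adjusted p = 3.00e-07), with little spread in either strain.

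Of 23 interferon-gamma response genes, 5 fell in NOD and 1 rose. Their median was -1.66, or -0.39 without B6 replicate 2, when 2 fell and 2 rose. Irgm2, an immunity-related GTPase that guards vacuolar membranes, stood at 6.45, 14.3, 21.6 and 12.3 CPM in NOD and 54.9, 115 and 47.6 CPM in B6 (-2.40 ± 0.41, adjusted p = 3.35e-04); its gene overlaps Igtp on the same strand, so reads could be split between them. Gbp4, a guanylate-binding GTPase, stood at 2.97 to 8.96 CPM in NOD and at 15.4, 65.7 and 17.6 CPM in B6 (-2.50 ± 0.49, adjusted p = 0.00208), a call lost without B6 replicate 2 (adjusted p = 0.15). The chemokine genes Cxcl9 (-1.72, adjusted p = 0.326) and Cxcl10 (-0.38, adjusted p = 0.688) did not pass.

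The Ifi200 genes, a cluster of interferon-inducible DNA-binding proteins on chromosome 1, moved in both directions. Of 13 tested, 4 were lower and 1 higher. Ifi202b stood at 28.9, 19.7, 24.1 and 28 CPM in NOD and at 0.22, 0.22 and 0.114 CPM in B6 (7.0 ± 0.63, adjusted p = 5.10e-09). In the other direction, Ifi206 stood at 0.322 to 0.865 CPM against 17.7 to 66.6 CPM (-6.14 ± 0.80, adjusted p = 5.26e-06) and Ifi213 at 0.0857 to 2.04 CPM against 23.7 to 61.2 CPM (-5.87 ± 0.84, adjusted p = 2.22e-05). Ifi209 (-3.21 ± 0.54, adjusted p = 2.48e-04) and Ifi204 (-1.91 ± 0.34, adjusted p = 6.63e-04) were also lower, while Aim2, the sensor of cytosolic DNA, did not pass (0.54, adjusted p = 0.487). In the Trim5 and Trim30 cluster of retroviral restriction factors on chromosome 7, Trim12a (0 to 0.157 against 14.9 to 28.1 CPM, -7.71 ± 0.88, adjusted p = 4.97e-07) and Trim12c (-3.10 ± 0.73, adjusted p = 0.0153) were lower and 9 of 11 did not pass. Genes of both clusters have near-identical copies among which counting could split reads, so their single values are uncertain. The call of Trim12c was lost without NOD replicate 2 or 4 or B6 replicate 1 or 3 (adjusted p = 0.0543 to 0.0653).

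MHC class II presentation genes were lower in 5 of 16 members and higher in none, with a median of -0.29. Cd74, the invariant chain that escorts class II molecules, stood at 3364, 2704, 3666 and 3803 CPM in NOD and 8131, 10755 and 6459 CPM in B6 (-1.32 ± 0.15, adjusted p = 3.44e-07). The beta chain genes H2-Ab1 (1073 to 1523 against 2160 to 4796 CPM, -1.32 ± 0.17, adjusted p = 5.13e-06) and H2-Eb1 (899 to 1526 against 1904 to 3622 CPM, -1.14 ± 0.18, adjusted p = 1.38e-04) were lower in each NOD library than in any B6 library. H2-Oa (-2.87, adjusted p = 0.00426) and H2-Ob (-1.93 ± 0.38, adjusted p = 0.00206) encode the dimer that restrains peptide loading. The alpha chain gene H2-Aa (-0.53, adjusted p = 0.109) did not pass, nor did Ciita, the master regulator of class II genes (-0.85, adjusted p = 0.0625), or the peptide exchange genes H2-DMa (-0.36, adjusted p = 0.35) and H2-DMb1 (0.04, adjusted p = 0.954). These are polymorphic genes whose NOD reads were counted against a C57BL/6J reference, and the part of that in the values was not tested. With limma-voom the calls of Cd74 (adjusted p = 0.128) and H2-Eb1 (adjusted p = 0.0502) were lost and 3 members were lower, as they were without B6 replicate 2, when H2-Oa and H2-Ob were lost (adjusted p = 0.0773 and 0.0708).

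MHC class I presentation genes were lower in 4 of 22 and higher in none (median -0.50). As in class II, the heavy chain genes H2-K1 and H2-T22 (-3.28 ± 0.75, adjusted p = 0.012) are polymorphic and have near copies, and the part of read assignment in their values was not tested. The call of H2-T22 was lost without filtering (adjusted p = 0.0846) and without NOD replicate 2 or B6 replicate 2 (adjusted p = 0.0502 to 0.0927). H2-K1, a classical class I heavy chain, stood at 260, 245, 299 and 299 CPM in NOD and 458, 731 and 448 CPM in B6 (-0.98 ± 0.16, adjusted p = 2.19e-04). B2m, the light chain shared by class I molecules, stood at 2240 to 3464 CPM in NOD and 4118 to 6144 CPM in B6 (-0.92 ± 0.17, adjusted p = 7.62e-04). Tap1, a chain of the peptide transporter of this pathway, stood at 18.9 to 35 CPM against 38.3 to 117 CPM (-1.58 ± 0.41, adjusted p = 0.0325), and lost its call without NOD replicate 2, 3 or 4 or B6 replicate 1 or 2 (adjusted p = 0.0789 to 0.233). The count fell to 2 without B6 replicate 2 or NOD replicate 2. Of 14 costimulation and checkpoint genes 2 were higher, Cd276 (B7-H3) at 71.5 to 112 CPM in NOD and 4.96 to 18.9 CPM in B6 (2.72 ± 0.44, adjusted p = 1.60e-04) and Vsir, the checkpoint receptor VISTA (0.67 ± 0.17, adjusted p = 0.0272). Cd86 (-0.04, adjusted p = 0.951) did not pass. Vsir was lost with upper-quartile scaling (adjusted p = 0.113) and without NOD replicate 1 or 3 or B6 replicate 1 or 2 (adjusted p = 0.054 to 0.182).

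Activating Fc receptors, which bind antibody complexes, differed in opposite directions. Fcgr1, the high-affinity receptor, stood at 728, 644, 579 and 764 CPM in NOD and 232, 284 and 245 CPM in B6, 2.68-fold higher (1.42 ± 0.18, adjusted p = 2.76e-06). Fcer1g, the signalling chain that such receptors share, stood at 492, 488, 511 and 504 CPM in NOD and 1073, 1572 and 1751 CPM in B6, 2.94-fold lower (-1.55 ± 0.14, adjusted p = 6.40e-09). The low-affinity receptor Fcgr3 (192 to 244 against 440 to 497 CPM, -1.02 ± 0.14, adjusted p = 1.04e-05) and the intermediate receptor Fcgr4 (77.3 to 96.9 against 109 to 422 CPM, -1.66 ± 0.27, adjusted p = 2.05e-04) were lower, and the inhibitory receptor Fcgr2b did not pass (0.15, adjusted p = 0.821). Over the whole list of 23 Fc receptor and ITAM signalling genes, 6 were lower and 3 higher, and with 1 library omitted 4 to 6 were lower and 1 or 2 higher (1 without NOD replicate 1 or 2 or B6 replicate 1 or 3). The kinase genes Lyn (-0.22, adjusted p = 0.514) and Syk (-0.44, adjusted p = 0.382), which act downstream of these receptors, did not pass.

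Several of these genes are neighbours. In non-overlapping windows of 1 Mb, 6 of 2275 windows with a tested gene held at least 4 called genes. These windows, picked for their calls, held 32 called of 190 genes tested, where 2.14% of all genes tested were called. On chromosome 1 of GRCm38, positions 171000001 to 172000000 held 7 called genes of 38 tested, all lower: Fcer1g, Fcgr3 and Fcgr4, the SLAM-family receptors Slamf7, Ly9 (17 to 25.7 against 42.7 to 62.5 CPM, -1.35 ± 0.28, adjusted p = 0.00531) and Cd244a (7.67 to 13 against 30.8 to 53 CPM, -2.01 ± 0.36, adjusted p = 6.63e-04), and the junction protein gene F11r (-0.91 ± 0.20, adjusted p = 0.00607). Ly9 and Cd244a overlap on opposite strands, and reads of the pair cannot be told apart without strand information. The next but one window, 173000001 to 174000000, held the 5 called Ifi200 genes of 15 tested. On chromosome 17, positions 34000001 to 35000000 held 7 lower genes of 61, 5 of them MHC genes (H2-Oa, H2-Ob, H2-Ab1, H2-Eb1 and Tap1) with the chromatin reader Brd2 (-0.75 ± 0.17, adjusted p = 0.00956). On chromosome 18, 60000001 to 61000000 held 5 lower genes of 18, among them Cd74 and its neighbour Tcof1, a nucleolar protein needed for ribosome production (50.8 to 116 against 189 to 487 CPM, -1.84 ± 0.32, adjusted p = 3.58e-04). The 2 other windows held genes of both directions, on chromosome 6 with Pianp and on chromosome 8 with Mt1, Mt2 and Adgrg5 higher (Adgrg5 173 to 197 against 15.8 to 45.7 CPM, 2.77 ± 0.30, adjusted p = 2.05e-07). Across chromosomes the share of tested genes called ran from 1.2% (chromosome X) to 3.08% (chromosome 10). The call of F11r was lost without B6 replicate 3 (adjusted p = 0.0773), and that of Brd2 without NOD replicate 3 or B6 replicate 1 or 2 (adjusted p = 0.0526 to 0.0919).

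Secreted and migratory signals differed in some members, where 2.14% of all genes tested were called. Of 23 chemokine genes, Cxcl14 was higher and Ccl3, an attractant of monocytes and T cells, lower (70.9 to 168 against 237 to 533 CPM, -1.40 ± 0.31, adjusted p = 0.00787). Among 17 chemokine and chemoattractant receptors, Ccr2, the receptor that draws monocytes into tissues, stood at 71.9, 44.6, 30 and 41.6 CPM in NOD and 8.48, 6.05 and 4.9 CPM in B6, 7.26-fold higher (2.86 ± 0.40, adjusted p = 1.93e-05). C5ar1, the receptor for complement fragment C5a, was 1.64-fold higher (adjusted p = 0.0261). No gene passed among 21 cytokines by edgeR, with 7 at an unadjusted p under 0.05, while DESeq2 called 4 and limma-voom 2. Of all 19703 genes tested, 3153 had an unadjusted p under 0.05 by edgeR, DESeq2 called 5.82% and limma-voom 5.17%. Il1b stood at -0.87 (adjusted p = 0.0538) and Tnf at -1.19 (adjusted p = 0.0636). On a list of 32 growth factor and matrix remodelling genes, Sparc and Mmp12, macrophage elastase (534, 568, 752 and 1010 CPM against 345, 379 and 200 CPM, 1.22 ± 0.23, adjusted p = 0.0012), were higher, and Ccn1, Spint1 and Pdgfb, a mitogen of mesenchymal cells (-0.94 ± 0.20, adjusted p = 0.00508), lower. Without B6 replicate 2 the calls of Ccl3 (adjusted p = 0.175) and Pdgfb (adjusted p = 0.0613) were lost, Ccl3 was also lost without filtering (adjusted p = 0.08), and C5ar1 was lost with upper-quartile scaling (adjusted p = 0.116) and without NOD replicate 2 or 4 or B6 replicate 2 or 3 (adjusted p = 0.0654 to 0.163).

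Ccr2 and lysozyme (Lyz2, 559 to 650 against 176 to 386 CPM, 1.23 ± 0.25, adjusted p = 0.00391) were the 2 of 16 monocyte genes that were higher. The monocyte list summed to 665 to 766 CPM in NOD and 282 to 462 CPM in B6, with much of the sum from Lyz2. Its median log2 fold change was -1.05, with 11 of 16 values below 0. The monocyte markers Ly6c2, with 1 count over the NOD and 14 over the B6 libraries, and Chil3, with 0 and 25, were too low for a fold and did not pass. Lyz2 lost its call without B6 replicate 2 (adjusted p = 0.0562), without filtering and with limma-voom (adjusted p = 0.0512 to 0.0778). Of 21 resident macrophage genes, the scavenger receptor gene Stab1 was lower (500 to 615 against 816 to 1561 CPM, -1.02 ± 0.20, adjusted p = 0.00183) and Siglech higher (104 to 179 against 32.1 to 74 CPM, 1.43 ± 0.32, adjusted p = 0.00836). Stab1 was lost without B6 replicate 1 (adjusted p = 0.102) and Siglech without B6 replicate 1 or 3 (adjusted p = 0.0579 to 0.0875).

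Scavenging and lysosomal genes included some rises. Trem2, a receptor for lipids that supports phagocytosis, stood at 180, 148, 181 and 147 CPM in NOD and 75.6, 37.4 and 56.4 CPM in B6 (1.54 ± 0.25, adjusted p = 1.91e-04). The scavenger receptor gene Msr1 (28.9 to 36.9 against 3.74 to 7.17 CPM, 2.54 ± 0.56, adjusted p = 0.00747) and Nceh1, which hydrolyses stored cholesterol esters (132 to 195 against 71.2 to 76.4 CPM, 1.13 ± 0.23, adjusted p = 0.00409), were higher as well. On the same list of 24 lipid genes, Apoe and Apoc2 were lower. Ctsd, the aspartic protease cathepsin D, was 2.13-fold higher (774 to 1058 against 401 to 469 CPM, 1.09 ± 0.21, adjusted p = 0.00191), while the proton pump subunit gene Atp6v0c was 2.43-fold lower (33.5 to 37.1 against 71.4 to 96.4 CPM, -1.28 ± 0.23, adjusted p = 5.77e-04). The other 26 lysosomal genes tested did not pass. Msr1 lost its call without B6 replicate 2 (adjusted p = 0.0797).

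Of 21 NADPH oxidase and redox genes, 2 were higher in NOD, and of 13 iron and metal transport genes 3 were higher and 1 lower, with a median of -0.10 and 8 values below 0. Hmox1, which breaks down haem, stood at 269, 231, 262 and 273 CPM in NOD and 61.3, 76.9 and 148 CPM in B6 (1.44 ± 0.28, adjusted p = 0.00217). The metallothionein gene Mt2 stood at 76.2, 66.5, 119 and 118 CPM in NOD and 8.81, 6.6 and 10.6 CPM in B6, 11-fold higher (3.45 ± 0.46, adjusted p = 8.05e-06). Its neighbour Mt1 (251 to 351 against 161 to 203 CPM, 0.81 ± 0.20, adjusted p = 0.0247) and the peroxidase gene Prdx1 (107 to 171 against 38.8 to 62.1 CPM, 1.30 ± 0.28, adjusted p = 0.00535) were also higher. Fth1, the ferritin heavy chain, which has many processed copies, stood at 2772 to 3659 against 2014 to 2252 CPM (0.56 ± 0.16, adjusted p = 0.0495), a call lost without any 1 of the 7 libraries (adjusted p = 0.0534 to 0.19) and under 7 other settings (adjusted p = 0.0553 to 0.221). Slc11a1, the phagosomal metal transporter also known as Nramp1, was 1.59-fold lower (188 to 236 against 278 to 389 CPM, -0.66 ± 0.15, adjusted p = 0.0127). Mt1 lost its call with RLE and upper-quartile scaling (adjusted p = 0.0534 to 0.0838) and without NOD replicate 3 or 4 or B6 replicate 1 or 2 (adjusted p = 0.0762 to 0.14), Prdx1 without B6 replicate 1 (adjusted p = 0.0709), and Slc11a1 without filtering (adjusted p = 0.0926) and without NOD replicate 4 or B6 replicate 1 or 3 (adjusted p = 0.0597 to 0.138).

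Of 32 oxidative phosphorylation genes, 3 rose in NOD and none fell, with 29 values above 0 and a median of 0.82. Their summed level was 1590 to 1660 CPM in the NOD libraries and 942 to 1082 CPM in the B6 libraries, without overlap. Atp5o, a subunit of the ATP synthase stalk, stood at 48.2, 59.9, 69.3 and 65 CPM in NOD and 10.7, 21.2 and 29.9 CPM in B6 (1.55 ± 0.36, adjusted p = 0.0129), and the catalytic subunit gene Atp5a1 at 214 to 225 against 120 to 140 CPM (0.78 ± 0.19, adjusted p = 0.0184). Without B6 replicate 1 or B6 replicate 2 edgeR called no member (Atp5o adjusted p = 0.0697 to 0.136, Atp5a1 0.11 to 0.112). In these fits 30 and 27 members had values above 0, and 6 and 9 an unadjusted p under 0.05. The share of all genes at that p was not taken there. In the main fit 10 of the 32 had such a p, as had 3153 of all 19703 genes tested. The 2 groups fitted alone called 7, DESeq2 4, limma-voom 5, and the fit without the B6 4 week libraries 11. Of all genes tested these fits called 6.45%, 5.82%, 5.17% and 9.88%. In glycolysis, Pfkfb3, which makes the activator of phosphofructokinase (113 to 141 against 194 to 308 CPM, -1.0 ± 0.20, adjusted p = 0.0039), and the hexokinase gene Hk3 (4.64 to 11.3 against 19.6 to 73.5 CPM, -2.57 ± 0.53, adjusted p = 0.00412) were lower, the hexokinase gene Hk1 was higher (27.1 to 57.2 against 14.1 to 21.1 CPM, 1.15 ± 0.31, adjusted p = 0.0426), and 14 of 17 genes did not pass. Pfkfb3 was lost without B6 replicate 1 (adjusted p = 0.0662) and Hk3 without B6 replicate 2 (adjusted p = 0.0924). Hk1 was lost when any 1 library except NOD replicate 4 was left out (adjusted p = 0.0539 to 0.208) and with RLE or upper-quartile scaling, no filter, limma-voom or the islet covariate (adjusted p = 0.0623 to 0.143).

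Immediate early genes, which are also induced while tissue is taken apart, were lower in 5 of 23 members and higher in none, with 22 values below 0 and a median of -0.83. Junb, an AP-1 subunit, stood at 159, 185, 222 and 191 CPM in NOD and 577, 605 and 334 CPM in B6 (-1.42 ± 0.23, adjusted p = 1.97e-04), and its partner Jun at 387 to 735 against 802 to 1440 CPM (-1.16 ± 0.23, adjusted p = 0.00216). Both lay lower in all NOD libraries. The constitutive chaperone gene Hspa8 was 2.38-fold lower (214 to 354 against 505 to 768 CPM, -1.25 ± 0.20, adjusted p = 1.86e-04), while the endoplasmic reticulum chaperone gene Hsp90b1 was 1.72-fold higher (409 to 469 against 236 to 293 CPM, 0.79 ± 0.19, adjusted p = 0.0157). The stress-induced chaperones Hspa1a (-1.16, adjusted p = 0.199) and Hspa1b (-1.09, adjusted p = 0.228) did not pass. The count of lower immediate early genes was 2 without NOD replicate 1 or B6 replicate 1, 3 without NOD replicate 2, without B6 replicate 2 or without filtering, 8 without NOD replicate 3 and 9 without B6 replicate 3. It was 9 with upper-quartile scaling and with the stricter filter, and 11 with DESeq2. Hsp90b1 was lost without B6 replicate 1 or 3 (adjusted p = 0.0706 to 0.102).

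Sialic acid caps on cell surface glycans are added by sialyltransferases and read by Siglec receptors, which mostly inhibit. St6galnac2, which adds sialic acid to O-linked glycans, stood at 289, 272, 244 and 364 CPM in NOD and 1.98, 2.97 and 2.51 CPM in B6 (6.87 ± 0.98, adjusted p = 1.53e-04). Its neighbour on chromosome 11, St6galnac1, stood at 8.38, 10.1, 11.9 and 18.9 CPM in NOD and had 0 counts in each B6 library, which makes NOD at least 111-fold higher, taking 3 counts in all for the 3 B6 libraries (adjusted p = 4.62e-05). St3gal6 was 1.69-fold lower (129 to 202 against 227 to 335 CPM, -0.76 ± 0.19, adjusted p = 0.0267), and the other 18 of 21 genes tested did not pass. Among 8 Siglecs, Siglech was higher as described and Siglece, an inhibitory receptor, stood at 88.8, 75.5, 95.7 and 94.2 CPM in NOD and 212, 162 and 271 CPM in B6 (-1.28 ± 0.21, adjusted p = 2.05e-04). Cd33 (0.19, adjusted p = 0.683) and Siglec1 (-0.60, adjusted p = 0.423) did not pass. St3gal6 was lost without filtering and with the islet covariate (adjusted p = 0.0575 to 0.0877) and without any of NOD replicates 2, 3 and 4 and B6 replicates 1 and 3 (adjusted p = 0.0552 to 0.155).

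Of 11 tested candidate genes from loci linked to diabetes in NOD mice, H2-Ab1, B2m and Slc11a1 were lower and none was higher. Sirpa, which binds the self signal CD47, stood at 1863, 1746, 1546 and 1670 CPM in NOD and 1214, 1117 and 1275 CPM in B6 without passing (0.51 ± 0.14, adjusted p = 0.0565). It was called with the 2 groups alone, without the B6 4 week libraries, with limma-voom and without filtering. The phosphatase gene Ptpn22 stood at 16.5 to 30.4 CPM in NOD and 39.5 to 76.3 CPM in B6 (-1.20 ± 0.42, adjusted p = 0.147), and Cd93 at 22.9 to 33.4 against 3.85 to 7.93 CPM (2.35 ± 0.65, adjusted p = 0.054). Neither overlapped between strains, which also held for 18% of all genes tested.

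Ribosomal protein genes, which have many processed copies, moved in both directions. The part in this of how reads were assigned among copies was not tested. Of 77 ribosomal protein genes, 8 were higher and 6 lower, with a median of 0.51. The lower ones differed by more than most of the higher ones: Rpl35a averaged 4.81 CPM in NOD and 41.7 CPM in B6 (-3.11, adjusted p = 5.59e-07), Rpl30 6.11 and 38.4 CPM (-2.65, adjusted p = 8.46e-07) and Rps2 14.2 and 103 CPM (-2.86, adjusted p = 8.16e-06). The processed copy Rps24-ps3 averaged 130 CPM in NOD and 1.9 CPM in B6 (6.09, adjusted p = 2.96e-09). Of all 1281 pseudogenes tested 21 were higher and 4 lower, whereas of 16016 protein-coding genes 153 were higher and 229 lower. Rprl3, a copy of the RNase P RNA gene (30.1 to 46.3 against 0.22 to 0.77 CPM, adjusted p = 2.49e-08), and Tpm3-rs7, a tropomyosin-related copy (91.8 to 105 against 1.21 to 4.55 CPM, adjusted p = 9.38e-09), are uncertain for the same reason.

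Few single markers of other cells that an islet digest could hold passed the test. On 13 such lists the calls were Siglech and Bst2, which stand on the plasmacytoid dendritic cell list. Of the 107 genes tested on the other 12 lists edgeR called 0, with 17 at an unadjusted p under 0.05, while DESeq2 called 1 and limma-voom 2. Over all 19703 genes tested, 3153 had an unadjusted p under 0.05 by edgeR, a background that the 17 do not stand out from. DESeq2 called 5.82% of all genes and limma-voom 5.17%. The insulin gene Ins2 stood at 1591, 471, 1744 and 2449 CPM in NOD and 331, 686 and 1055 CPM in B6 (adjusted p = 0.256). All 13 lists had a median log2 fold change below 0, against -0.07 over all genes tested, of which 53.1% were below 0. For 5 lists (islet endocrine, endothelial, stromal, erythroid and natural killer) the mean log2 CPM was lower in every NOD library than in any B6 library. Many members had few counts. Of the genes called at 2 weeks, 27 had 0 to 3 counts over the NOD libraries and 8 over the B6 libraries. Whether genes with few counts ran lower in NOD in general was not tested. The median over all genes tested may therefore not be the background for these lists. The islet endocrine list summed to 799 to 3562 CPM in NOD and 1154 to 1993 CPM in B6, while its mean log2 CPM ran from 1.85 to 3.43 and from 3.52 to 3.90, with 13 of 17 genes below 0 and a median of -0.99. The endothelial list had a median of -1.98 and a mean log2 CPM of -0.14 to 0.41 in NOD and 1.03 to 1.74 in B6. The T cell list summed to 81.7 to 135 and 101 to 138 CPM. Stromal genes summed to 11.9 to 21.9 CPM in NOD and 30.9 to 40.8 CPM in B6, with 0 of 10 called, and Col3a1 stood at -3.08 (adjusted p = 0.197). The neutrophil list summed to 33.9 to 64.1 and 67.7 to 103 CPM. The part of these levels in the differences above was not tested, except that a fit with an islet endocrine and acinar covariate called 392 genes.

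The strain differences at 2 weeks were followed in the older libraries, which are separate samples. Of the 421 genes, 312 (74.1%) were also called in the same direction at 4 weeks, where 3450 genes or 17.5% of those tested were called, so that the shared genes were 9.04% of the 4 week calls. At 12 weeks 178 (42.3%) were called in the same direction, of 875 genes or 4.44% called at that age (20.3% of them). In all 164 (39%) were called at all 3 ages, 72 higher and 92 lower, and 126 separated all 15 NOD from all 11 B6 libraries. Il2ra was called lower at all 3 ages, and averaged 17 ± 7.87, 69 ± 16.7, 52.3 ± 11.8 and 24.2 ± 5.02 CPM (SD) in NOD at 2, 4, 8 and 12 weeks and 129 ± 71, 940 ± 128 and 406 ± 30.6 CPM in B6 at 2, 4 and 12 weeks. Gatm, Dcstamp, Nlrp1b, Apobec3, Cacna1a and Pianp were also called at each age. The opposite direction was called for 2 genes at 4 weeks and for 22 at 12 weeks.

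The strain difference at 2 weeks differed from that at 12 weeks, by an interaction test, for 87 of the 421 genes (20.7%), where 1.66% of all genes tested had a called interaction. The test uses the same 2 week libraries that called the genes, so this share is not independent of the calls. In 79 of the 87 the value at 12 weeks was shifted against the direction of the 2 week difference, and in 65 the absolute log2 fold change was larger at 2 weeks than at 12 weeks. Against 4 weeks, 19 of the 421 (4.51%) had a called interaction, where 0.893% of all genes tested had one. The count against 12 weeks was 49 without B6 replicate 2 and 41 with the islet covariate.

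**Figure D4:**
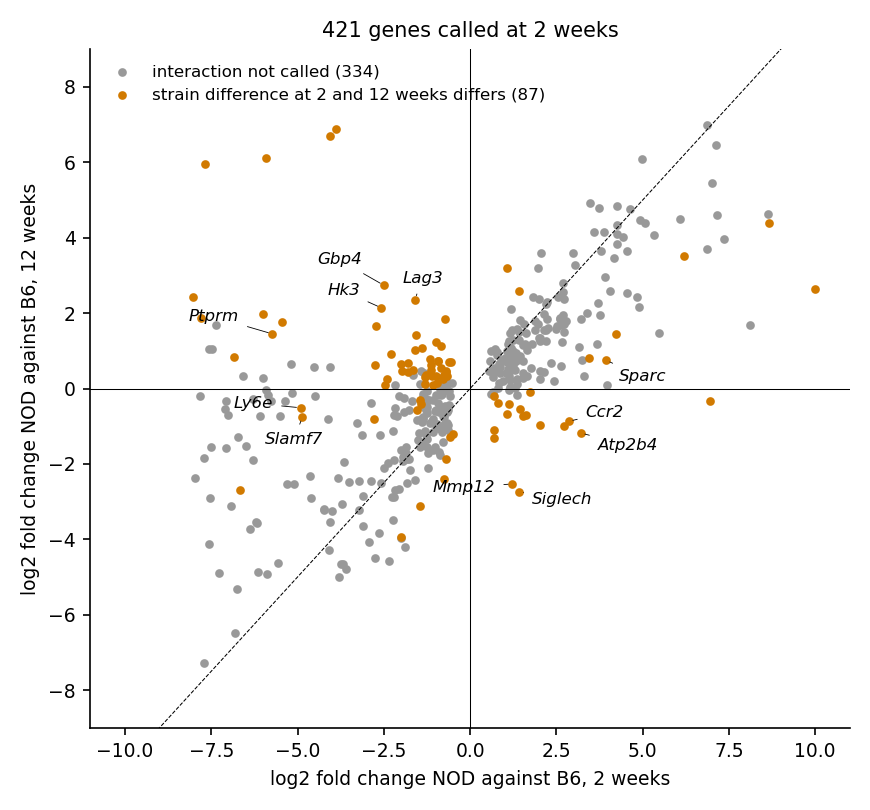
Log2 fold change of NOD against B6 at 2 weeks (x axis) and at 12 weeks (y axis) for the 421 genes called at 2 weeks, with a dashed line of equal values. The 87 genes whose strain difference differed between these ages are orange, among them Ly6e, near 0 at 12 weeks, and Siglech and Mmp12, below 0 at 12 weeks.

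Sparc averaged 407 ± 33.3 CPM in NOD at 2 weeks, 46.8 ± 14.1 at 4 weeks and 18.4 ± 0.791 at 12 weeks, while B6 averaged 26.5 ± 3.65, 43.3 ± 24.8 and 10.9 ± 5.94. Its strain difference was 3.94 at 2 weeks, 0.11 at 4 weeks and 0.75 at 12 weeks (interaction adjusted p = 4.48e-04 against 4 weeks and 4.51e-04 against 12 weeks). Ly6e averaged 51.5 ± 4.18, 141 ± 53.2, 542 ± 103 and 762 ± 108 CPM in NOD at 2, 4, 8 and 12 weeks, while B6 averaged 1547 ± 696, 1996 ± 383 and 1082 ± 91 CPM at 2, 4 and 12 weeks. The difference of -4.91 at 2 weeks was -0.51 at 12 weeks (interaction adjusted p = 7.18e-10). Slamf7 averaged 1.25 ± 0.869 CPM in NOD at 2 weeks and 66.2 ± 14.9 CPM at 12 weeks (interaction adjusted p = 1.39e-05).

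Other genes differed in opposite directions at 2 and 12 weeks. Siglech averaged 140 ± 38 CPM in NOD and 52.2 ± 21 in B6 at 2 weeks, and 20.9 ± 9.18 and 140 ± 38.1 CPM at 12 weeks (interaction adjusted p = 7.19e-07). Mmp12 averaged 716 ± 218 and 308 ± 94.7 CPM at 2 weeks, and 148 ± 20 and 853 ± 185 CPM at 12 weeks (interaction adjusted p = 9.26e-09). H2-K1 was lower in NOD at 2 weeks and higher at 12 weeks (1249 ± 183 against 531 ± 48.7 CPM, 1.23 ± 0.16, adjusted p = 4.25e-06, interaction adjusted p = 2.27e-07), as was B2m (interaction adjusted p = 3.80e-05). Gbp4 averaged 5.83 ± 2.52 CPM in NOD at 2 weeks and 66.1 ± 7.51 CPM at 12 weeks, and its interaction was -5.24 (adjusted p = 1.19e-05). Ccr2, higher in NOD at 2 weeks, averaged 45.8 ± 9.93 CPM in NOD and 83.9 ± 23.6 CPM in B6 at 12 weeks, where it did not pass (adjusted p = 0.247, interaction adjusted p = 5.24e-05). Of the interferon-gamma response genes 11 of 23 were higher in NOD at 12 weeks and none lower, and of the MHC class I genes 14 of 22, against 1 and none at 2 weeks. At 12 weeks 4.44% of all genes tested were called, in either direction. Of the 45 type I interferon-stimulated effectors, 2 were higher and 5 lower at 12 weeks, with a median of -0.48. At 4 weeks, where 17.5% of all genes were called, 2 of them were higher and 12 lower. Age and all that changed with it in the colony cannot be told apart in these samples.

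**Figure D5:**
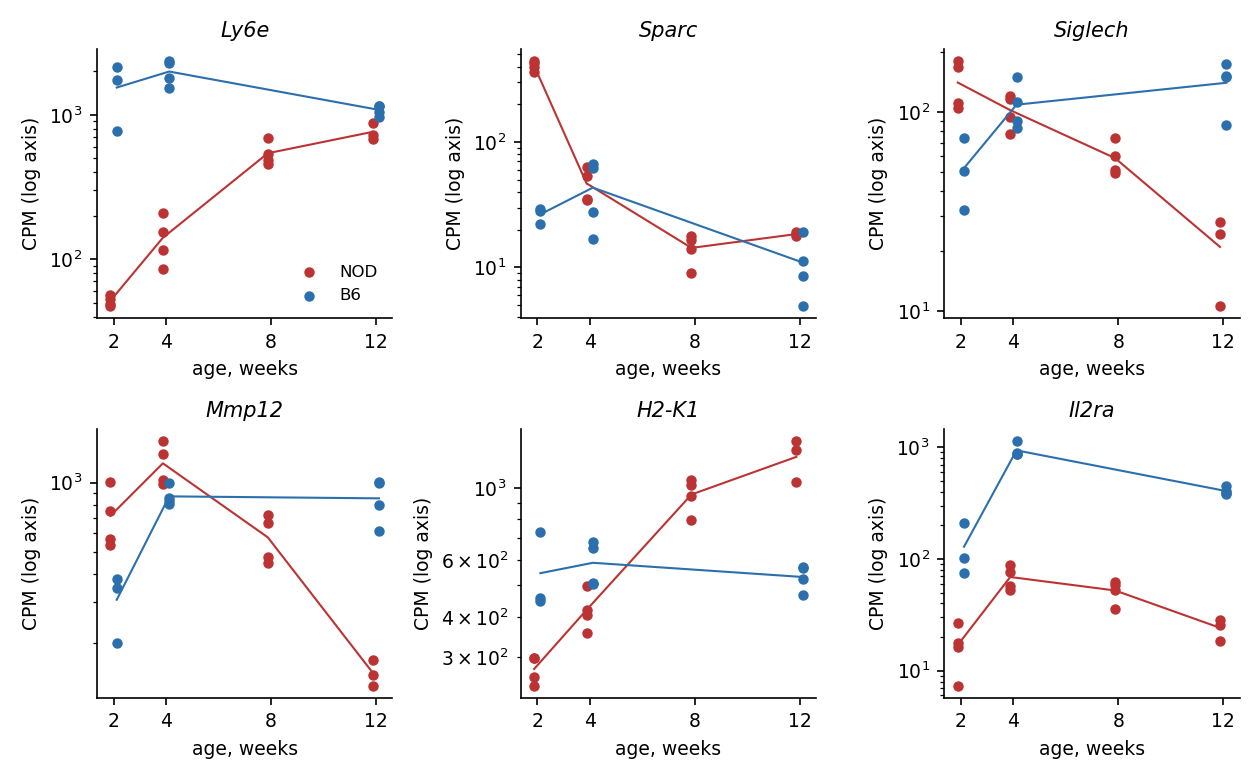
CPM on a log axis by age in weeks for 6 genes, with 1 point per library and lines through the group means (NOD at 2, 4, 8 and 12 weeks, B6 at 2, 4 and 12 weeks). Ly6e and Sparc differ between strains at 2 weeks and lie close at 12 weeks, Siglech, Mmp12 and H2-K1 cross, and Il2ra stays lower in NOD.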

How the data were processed

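Gene counts were deposited by the authors as 1 table of raw counts for 26 libraries. The submitters' processing notes name STAR, HTSeq and DESeq2 and the builds mm10 and GRCm38, with no versions. Of 41092 lines, 534 repeated lines of 286 gene IDs were removed, and 40254 of 40558 genes matched a symbol in the GRCm38 annotation. Whether counting used strand is not given in the sources used here.

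Groups came from the sample titles. Counts were tested with edgeR 4.0.16 (R 4.3.3, limma 3.58.1): TMM scaling, genes kept by filterByExpr (minimum count 10, total 15), robust quasi-likelihood fit over 7 groups of all 26 libraries, Benjamini-Hochberg adjusted p under 0.05 over all genes tested. Every adjusted p in the text is from this test unless another tool is named. CPM are TMM-scaled, and log2 CPM used a prior count of 2. Errors beside log2 fold changes are standard errors, and those beside mean CPM are SD over the libraries of a group (NOD at 2 weeks n = 4, B6 at 2 weeks n = 3). The code was tested on simulated counts whose spread was modelled on the main fit. There the test called 3 of 50 genes with a true 2-fold difference, 18 of 50 at 4-fold and 35 of 50 at 16-fold. Of 18454 genes without a difference, 4 were called. Genes that did not pass are thus not shown to be equal between strains. As alternatives, TMM was replaced by RLE or by upper-quartile scaling, the filter was dropped or raised to 5 CPM in 3 libraries, and edgeR was replaced by limma-voom (sample weights) or DESeq2 1.42.0. Others were a block for the replicate number, fewer groups in the fit, an islet endocrine and acinar covariate, a fold threshold and the omission of each library.

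Genes named were the 12 largest rises and falls of at least 20 CPM without overlap, the 10 most abundant called in each direction, up to 4 called per list, all of certain lists, and the 8 largest interactions with age, with some left out for room. Other names, among them members that did not pass, genes of called windows, ribosomal protein genes and further interferon-stimulated genes, were chosen after their values were seen. The comparison, the 45 gene lists and their members were chosen with earlier results of these data known. Promoter sequences are from RefSeq on GRCm38.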

Additional observations from a re-analysis of the deposited data

Results flagged for a closer look

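In 5 of 150 genes examined, 1 of the 4 NOD libraries stood far from the other 3, where chance alone flags about 1 in 20 groups. The stray values were high in replicate 3 for Ifi213 (2.04 CPM) and Eps8l1 (1.57 CPM), high in replicate 2 for Prdx1 (171 CPM), and low in replicate 2 for Csf1r (2197 CPM) and Zbp1 (5.93 CPM). Of the 115 of these genes called at 2 weeks, the strain difference at 2 weeks differed from that at 12 weeks in 36, by the edgeR interaction test. Over all genes tested, 1.66% had a called interaction. Some genes were named for a large interaction, and the test uses the same 2 week libraries, so the 36 are partly set by the choice of genes. The values that follow are the log2 strain difference at 2 weeks minus that at 12 weeks.

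Among genes of interferon response and antigen presentation the value was negative: Gbp4 -5.24, Ly6e -4.40, Zbp1 -3.21, Tap1 -2.99, Irgm2 -2.66, Irf7 -2.43, H2-K1 -2.22, H2-Eb1 -1.77, B2m -1.66, H2-Ab1 -1.62, Cd74 -1.45 and Rnf213 -1.03. It was negative also for the surface receptors Slamf7 (-4.10), Cd244a (-2.64), Fcgr4 (-2.15), Fcgr1 (-1.16) and Itgax (-1.12), and for the signalling chain Fcer1g (-0.98). Fcgr1 differs from these in that it was higher in NOD at both ages. The phosphatase Ptprm stood at -7.18, the hexokinase Hk3 at -4.72 and the nuclease Pld4 at -1.38.

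The value was positive for the secreted proteins Mmp12 (3.75), Sparc (3.19), Cxcl14 (2.80), Cst3 (1.53) and Apoe (1.18). The same held for the receptors Siglech (4.17), Ccr2 (3.73) and Trem2 (2.27), the calcium pump Atp2b4 (4.39), the metallothionein Mt2 (2.63) and the haem-degrading Hmox1 (1.97). The sialyltransferases St6galnac1 (7.36, fitted against 0 counts in B6 at 2 weeks and so no bound) and St3gal6 (1.64), the kinase Wnk1 (0.70) and Rprl3 (2.70, a gene with near-identical copies) complete the set. Apoe, St3gal6 and Wnk1 differ from the others in that they were lower in NOD at both ages, and by more at 12 weeks.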

How the results depend on the processing

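The 421 calls (177 higher, 244 lower) became 1147 (375, 772) with DESeq2, 1018 (390, 628) with limma-voom, 906 (410, 496) with the 2 groups alone and 1880 (859, 1021) without the B6 4 week libraries. Upper-quartile scaling gave 442 lower, and omitting 1 library gave 239 to 326 calls, 97 to 145 higher and 140 to 184 lower. The 164 calls kept at all ages were 287 with DESeq2, 93 with the islet covariate and 117 to 135 with 1 library omitted. The 87 interactions were 274 with DESeq2, 260 with limma-voom, 482 without the B6 4 week libraries, 41 with the islet covariate and 49 to 73 with 1 library omitted. The cause of these shifts was not tested.

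Of all genes tested, DESeq2 called 5.82% and limma-voom 5.17%, in either direction. The 2 groups alone called 6.45%, and the fit without the B6 4 week libraries 9.88%. Among lists, the 15 lower interferon-stimulated effectors were 25 with DESeq2, 23 with the 2 groups alone, 28 without the B6 4 week libraries and 5 to 14 with 1 library omitted. The 5 lower interferon-gamma response genes were 8 with upper-quartile scaling and with the stricter filter, 9 with DESeq2, 10 without the B6 4 week libraries and 2 to 6 with 1 library omitted. MHC class II counts were 3 with limma-voom and 3 to 6 with 1 library omitted, and MHC class I counts 7 with DESeq2, 9 without the B6 4 week libraries, 2 at an absolute log2 fold change of at least 1 and 2 to 4 with 1 library omitted. Lower Fc receptor and ITAM genes numbered 4 to 6 with 1 library omitted. Oxidative phosphorylation counts were 5 with limma-voom, 7 with the 2 groups alone, 11 without the B6 4 week libraries and 0 to 3 with 1 library omitted. Immediate early counts were 9 with upper-quartile scaling and with the stricter filter, 3 without filtering and at an absolute log2 fold change of at least 1, 11 with DESeq2 and 2 to 9 with 1 library omitted.

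The replicate block gave 362 calls, of which 342 were among the 421. Same-numbered libraries did not deviate together across genes (r = -0.01, -0.016 and -0.046), where libraries of different number gave r from -0.029 to 0.037. With so few libraries, these values cannot show whether same-numbered libraries were processed together. Of 115 called genes named, 70 kept their call in every alternative fit that tested them, and none changed sign. The fold threshold was not applied to this count. Among named genes that were not called, some changed sign. With 1 library omitted the log2 fold change ran from -0.12 to 0.11 for Cd86, -0.60 to 0.21 for Cxcl10, -0.02 to 0.49 for Fcgr2b and -0.13 to 0.09 for Ptprc. Cd86 was 0.02 with the replicate block, Fcgr2b -0.04 with upper-quartile scaling and Ptprc 0.02 without filtering. H2-DMb1 was -0.07 with RLE scaling and DESeq2, -0.13 with upper-quartile scaling, -0.04 with the stricter filter, -0.01 with the 2 groups alone and -0.16 to 0.49 with 1 library omitted. B6 libraries had fewer counts than NOD libraries, which limits low genes most in B6.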
